A study of Mus musculus with 21 samples.

Results

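Steady-state mRNA was compared between Ddx6 knockout (KO) and wild-type mouse embryonic stem cells (ESCs), using the 7 total RNA libraries among the 21 libraries of the series. These are every library labelled total RNA in the single-end run: 3 of wild-type cells, 2 of KO clone 1 and 2 of KO clone 2. The cells are V6.5 ESCs, a line derived from mouse blastocysts, kept in medium with fetal bovine serum, LIF, the MEK inhibitor PD0325901 and the GSK3 inhibitor CHIR99021. Every culture, wild type included, was exposed to 4-thiouridine at 500 µM for 30 minutes before its RNA was collected, and the total RNA was depleted of ribosomal RNA. The KO was made with Cas9 and a guide aimed at the start of Ddx6 exon 7, and each KO line is 1 clone grown as 2 cultures. A single-nucleotide insertion was found in a KO line and a large deletion in the other, but the labels do not say which clone number carries which allele. Nothing states that the cultures were started independently, so the p-values below measure the spread between these 7 cultures, which may be partly technical. They treat the 4 KO cultures as replicates although these come from 2 clones. In bulk RNA, a lower level can come from fewer cells that express a gene or from less RNA per cell, and these cannot be told apart.

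DDX6 is a DEAD-box RNA helicase of processing bodies, the cytoplasmic granules where repressed mRNAs gather with decapping factors. It binds the decapping activators, the eIF4E-binding protein 4E-T and the CCR4-NOT deadenylase complex, and through these partners it takes part in translational repression and in microRNA silencing. ESCs in this medium hold a naive pluripotent state in which the MEK inhibitor dampens ERK signalling and the GSK3 inhibitor keeps the Wnt pathway active.

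Libraries held between 5724179 and 7369651 counts, so 1 read was worth between 0.136 and 0.175 CPM, the unit used below for counts scaled by library size. Rank correlations of log2 CPM lay between 0.994 and 0.995 within a group, between 0.992 and 0.994 across the clones and between 0.957 and 0.961 across genotypes. All 40 genes of the naive pluripotency list passed the filter of 3 CPM in 3 libraries, so the libraries carried the markers of ESCs. Markers of other cell types passed that filter in part. Of the 30 fibroblast markers, 11 were tested, and Dcn, Postn, Mmp3, Ccl2 and Tcf21 had no read in any library. Of the 27 primitive endoderm markers, 14 were tested. Gata6, Sox17 and Sox7 stayed under the filter, while Gata4, Hnf4a and Dab2 passed it. That list summed to between 2784 and 2838 CPM in wild type and between 2438 and 2636 CPM in the KO. Of the 26 trophoblast markers 15 were tested, and of the 38 mesoderm and endoderm markers 9. Of the 43 neural markers, 20 were tested, and Dcx, Neurog3, Snap25 and Syt1 were among those with no read. Clone 2 stood apart from the other cultures in its Y-linked genes and several imprinted genes. Both clones stood apart from wild type in the level of chromosome 6 genes. Chromosome 6 is therefore described separately. Medians of gene lists are given without it, while counts of list members include it unless stated otherwise.

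Ddx6 was measured at 314, 357 and 363 CPM in the wild-type cultures, 59.6 and 70.7 CPM in clone 1 and 23.9 and 22.5 CPM in clone 2. All 4 KO cultures lay below the wild-type cultures (log2 fold change -3.04 ± 0.38 (SE), adjusted p = 0.00106), and clone 2 lay below clone 1 (log2 difference -1.496 ± 0.11 (SE), adjusted p = 6.6e-14). Ddx6 lies on the plus strand of chromosome 9. Exon 7, which the guide targets, is coding sequence at chr9:44626388-44626482 (GRCm38). Its 95 bases are shown as the stretch aimed at to make the KO, and they were read from the Gencode transcript of 14 exons:

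Ddx6 exon 7: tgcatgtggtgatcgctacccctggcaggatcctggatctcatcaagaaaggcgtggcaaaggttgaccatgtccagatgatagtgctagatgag

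Of 12099 genes tested, 737 were called up and 394 down in the KO, where a call needs an adjusted p under 0.05 and an absolute log2 fold change above 1 (edgeR's quasi-likelihood test with Benjamini-Hochberg adjustment, used for every adjusted p below). This is 6.09% of tested genes up and 3.26% down, the shares to set beside the counts of each list below. Calls in either direction were 9.35% of tested genes. With the adjusted p alone, 3613 genes were higher and 3614 were lower, 29.9% each. Calls beyond 2-fold leaned upward, in part through the filter, as given below. On CPM scaled by the TMM factors, which correct for differences in library composition, the 4 KO cultures lay entirely above the 3 wild-type cultures for 29.1% of tested genes and entirely below for 28.9%. Outside chromosome 6, 624 genes were called up and 381 down, 5.42% and 3.31% of 11518, and by adjusted p alone 27.5% were higher and 31.0% lower. Protein-coding genes made up 707 of the genes called up and 321 of those called down. Among 120 tested lincRNAs, 15 were called up and 21 down, and among 110 tested snoRNAs none was called up and 14 were called down, with a median log2 fold change of -0.74. Transcript length also moved with the fold change, as described with the ribosomal protein genes, and its part in the snoRNA result was not tested. Calls up made 65.2% of all calls, and 54.0% when the 4-thiouridine-selected libraries joined the fit. The filter let in 349 genes that reached 3 CPM in KO cultures only, 279 of them called up. Another 98 reached it in wild-type cultures only, 86 of them called down. The other 11652 genes had 458 called up and 308 down. To enter through 1 genotype takes 3 of the 4 KO cultures or all 3 wild-type cultures. Genes that entered this way had to differ, so they move the counts and medians of the lists they belong to. They are counted apart for the FGF and ERK, germline, 2-cell-like, mesoderm, fibroblast, extracellular matrix, interferon, solute carrier and ion channel lists. The same is done for the Wnt, intermediate filament, cadherin and tubulin lists. Other lists include any such genes. Of the 185 genes named by rule, 19 lost the call without 1 of the cultures because the fold fell below the threshold, and all of these kept an adjusted p under 0.05.

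**Figure D1:**
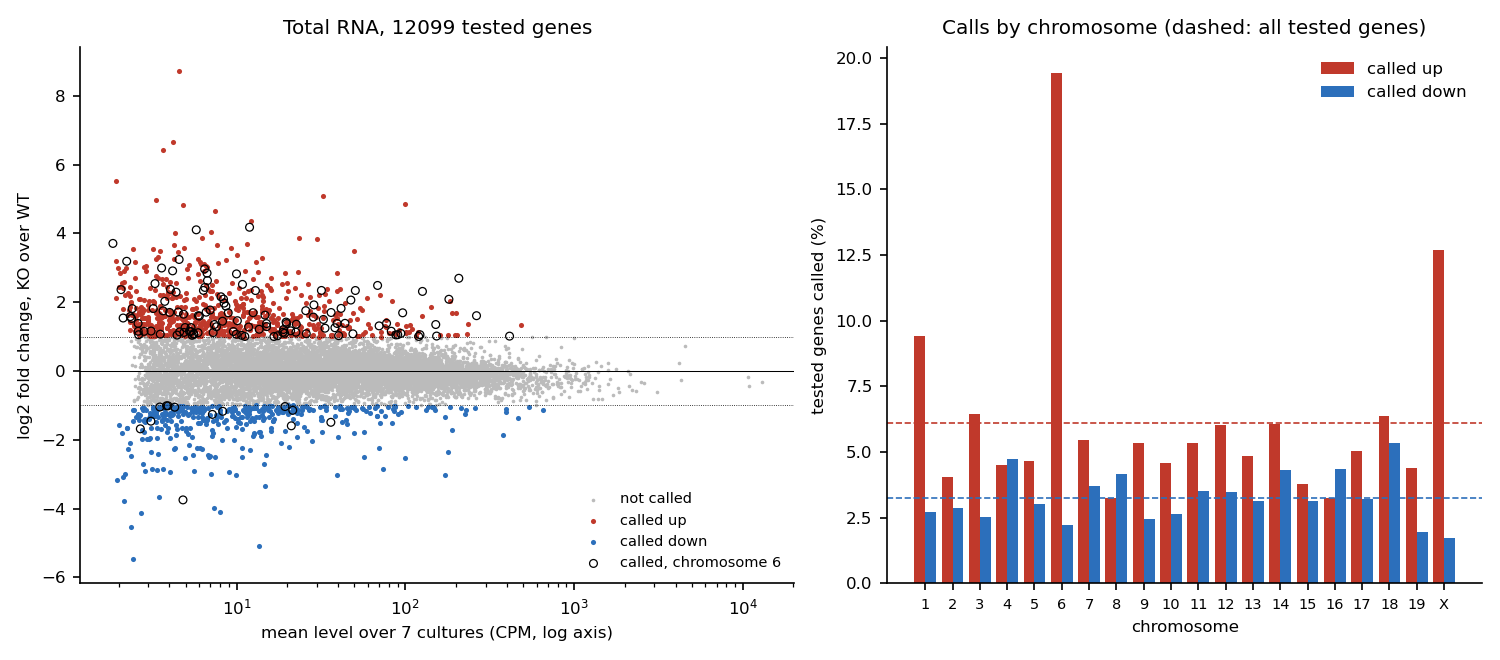
Left, log2 fold change of KO over WT (y axis) against the mean level over the 7 cultures in CPM (x axis, log scale) for 12099 tested genes. Red and blue points are genes called up and down outside chromosome 6, open circles are called genes on chromosome 6. Right, the percentage of tested genes called up and down on each chromosome, with dashed lines at the shares over all tested genes, 6.09% and 3.26%. Chromosome 6 stands out with 19.4% called up, followed by X with 12.7%.

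The genes that rose most outside chromosome 6 encode a mixed set of signalling, epithelial and transport proteins. Spry4, a feedback inhibitor of receptor tyrosine kinase signalling, was at 1.22, 0.916 and 2.42 CPM in the wild-type cultures, 48.4 and 53.5 CPM in clone 1 and 64.9 and 56.3 CPM in clone 2. Every KO culture was far above every wild-type culture (log2 fold change 5.08 ± 0.18 (SE), adjusted p = 1.5e-21), a 33.9-fold rise. Gm364, an X-linked gene of uncertain function, went from 5.48 ± 1.06 to 170.4 ± 16.7 CPM (mean ± SD here and below, n = 3 and n = 4; log2 fold change 4.87 ± 0.11 (SE), adjusted p = 6.5e-25), with wild type at 4.72, 5.04 and 6.69 CPM. Inhbb, which encodes the beta subunit of activin B, was at 6.81, 7.17 and 6.97 CPM in the wild-type cultures, 84.6 and 88.6 CPM in clone 1 and 72.9 and 82.3 CPM in clone 2 (log2 fold change 3.48 ± 0.11 (SE), adjusted p = 8.2e-28). The groups did not overlap for any of these genes.

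The 12 largest rises belong to several kinds of gene. Krtdap, a keratinocyte differentiation protein, went from 0.458 ± 0.400 to 12.7 ± 0.613 CPM (log2 fold change 4.64 ± 0.31 (SE), adjusted p = 1.8e-16). Tgm3, a transglutaminase that cross-links proteins in the epidermis, went from 0.684 ± 0.165 to 11.9 ± 1.69 CPM (log2 fold change 4.04 ± 0.29 (SE), adjusted p = 1.3e-15). Loxl4, a lysyl oxidase that cross-links collagen, went from 2.56 ± 0.774 to 38.9 ± 2.20 CPM (log2 fold change 3.86 ± 0.16 (SE), adjusted p = 1.9e-23). Slc25a24, a mitochondrial carrier of ATP-magnesium and phosphate, rose by 3.69 on the log2 scale, and Slc38a5, a neutral amino acid transporter, by 3.59. Ano1, a calcium-activated chloride channel, was at 0.699, 0.916 and 1.14 CPM in the wild-type cultures, 26.3 and 25.1 CPM in clone 1 and 17.5 and 13.3 CPM in clone 2 (log2 fold change 4.37 ± 0.33 (SE), adjusted p = 3.0e-09), and clone 1 was above clone 2 (log2 difference -0.73 ± 0.16 (SE), adjusted p = 0.00603). Fgf2, Sh3bgrl, which encodes a small thioredoxin-fold protein, and Hmgn3, a nucleosome-binding protein, complete the 12 largest rises, with log2 fold changes of 3.85 ± 0.33, 3.85 ± 0.14 and 3.67 ± 0.26 (SE). In 1 called gene no read was found in any wild-type culture: the lincRNA A730082K24Rik on chromosome 7 was at 6.13 to 10.04 CPM in the KO cultures, at least 52.1-fold higher than the 0.155 CPM that 3 reads over the wild-type group would give.

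The 12 genes that fell most are of mixed kinds. Gtsf1l, a germ cell zinc finger protein related to Gtsf1, was at 32.0, 29.2 and 30.3 CPM in the wild-type cultures, 1.66 and 1.502 CPM in clone 1 and 0.271 and 0.322 CPM in clone 2 (log2 fold change -5.08 ± 0.23 (SE), adjusted p = 1.5e-19), with clone 2 lowest. Khdc3, which encodes the FILIA protein of oocytes and ESCs, went from 30.3 ± 1.17 to 3.11 ± 0.839 CPM (log2 fold change -3.33 ± 0.16 (SE), adjusted p = 2.9e-21). Pramel7, a leucine-rich repeat protein of the blastocyst inner cell mass, went from 14.01 ± 2.72 to 1.86 ± 1.01 CPM (log2 fold change -2.99 ± 0.25 (SE), adjusted p = 8.9e-12). Gldc, the glycine decarboxylase of the glycine cleavage system, was among the best measured falls at 183, 189 and 190.3 CPM in the wild-type cultures, 31.0 and 33.1 CPM in clone 1 and 34.2 and 37.3 CPM in clone 2 (log2 fold change -2.54 ± 0.06 (SE), adjusted p = 1.7e-31), a 5.81-fold lower level in the KO. Dnah8, an axonemal dynein heavy chain, went from 143 ± 7.35 to 20.97 ± 1.199 CPM (log2 fold change -2.84 ± 0.07 (SE), adjusted p = 4.1e-31). The lipases Pla2g1b and Liph fell by log2 fold changes of -4.10 ± 0.23 and -2.69 ± 0.17 (SE). Pcdh19, a protocadherin, had a log2 fold change of -3.97 ± 0.24, Mypn, a sarcomere protein, -2.94 ± 0.20, and Ly6g6e, a member of the Ly6 surface protein family, -3.02 ± 0.21. Rpl39l, a paralog of the ribosomal protein gene Rpl39, was at 82.5, 75.7 and 76.7 CPM in the wild-type cultures, 14.2 and 12.7 CPM in clone 1 and 6.38 and 7.40 CPM in clone 2 (log2 fold change -3.02 ± 0.20 (SE), adjusted p = 3.0e-06).

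Among the FGF and ERK pathway genes, 16 of 46 tested members were called up and 2 down, 34.8% and 4.35%, against 6.09% and 3.26% of all genes. The median log2 fold change of the members outside chromosome 6 was 0.27, against -0.02 for all tested genes outside it. By adjusted p alone 27 were higher and 11 lower. Of the members, 7 reached 3 CPM in KO cultures only, all called up, and 1 in wild-type cultures only, called down. The other 38 had 9 called up and 1 down, with a median of 0.13 outside chromosome 6. The called members include ligands, feedback inhibitors and immediate early transcription factors. Of the ligands, Fgf2 was at 0.349, 0.458 and 1.14 CPM in the wild-type cultures, 10.6 and 13.7 CPM in clone 1 and 8.96 and 8.52 CPM in clone 2 (log2 fold change 3.85 ± 0.33 (SE), adjusted p = 1.7e-13). Fgf17 was at 6.99, 6.56 and 6.12 CPM in the wild-type cultures, 25.8 and 28.5 CPM in clone 1 and 34.1 and 30.1 CPM in clone 2 (log2 fold change 2.11 ± 0.14 (SE), adjusted p = 1.3e-16). Both ligand genes were higher in every KO culture. Fgf1 and Fgf11 rose too, by 1.98 and 1.33, whereas Fgf3 and Fgf10 fell, with log2 fold changes of -1.76 and -1.65. Fgf3 was lower in clone 2 than in clone 1 (log2 difference -1.77 ± 0.47 (SE), adjusted p = 0.0401).

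Of the feedback inhibitors, Spred3, a Sprouty-related repressor of RAF activation, was at 2.10, 2.44 and 2.42 CPM in the wild-type cultures, 12.7 and 13.8 CPM in clone 1 and 10.4 and 9.81 CPM in clone 2 (log2 fold change 2.25 ± 0.22 (SE), adjusted p = 1.6e-11). Dusp6, the phosphatase that removes the activating phosphates from ERK, was at 3.84, 6.72 and 6.97 CPM in the wild-type cultures, 20.9 and 14.3 CPM in clone 1 and 21.4 and 17.5 CPM in clone 2 (log2 fold change 1.57 ± 0.18 (SE), adjusted p = 2.5e-09). Together with Spry4, these genes are commonly read as transcriptional targets of ERK. The list also holds immediate early genes, which are switched on within minutes of a growth signal. Egr1 was at 1.05, 0.305 and 0.854 CPM in the wild-type cultures, 6.79 and 2.73 CPM in clone 1 and 6.51 and 5.14 CPM in clone 2 (log2 fold change 2.75 ± 0.40 (SE), adjusted p = 2.3e-07). Junb was at 21.3, 18.01 and 20.1 CPM in the wild-type cultures, 89.4 and 84.7 CPM in clone 1 and 99.1 and 85.2 CPM in clone 2 (log2 fold change 2.11 ± 0.09 (SE), adjusted p = 8.9e-24). Fos, Jun, Fosl2 and Ier3 had log2 fold changes of 1.07, 1.22, 1.59 and 1.71, and Ier2 was higher by 0.53 and was not called. The ETS factors Etv1 and Etv4, which act downstream of FGF receptors, rose by 1.58 and 1.31. For each of these called genes all KO cultures lay above all wild-type cultures, as the plot of the called FGF and ERK genes shows.

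**Figure D2:**
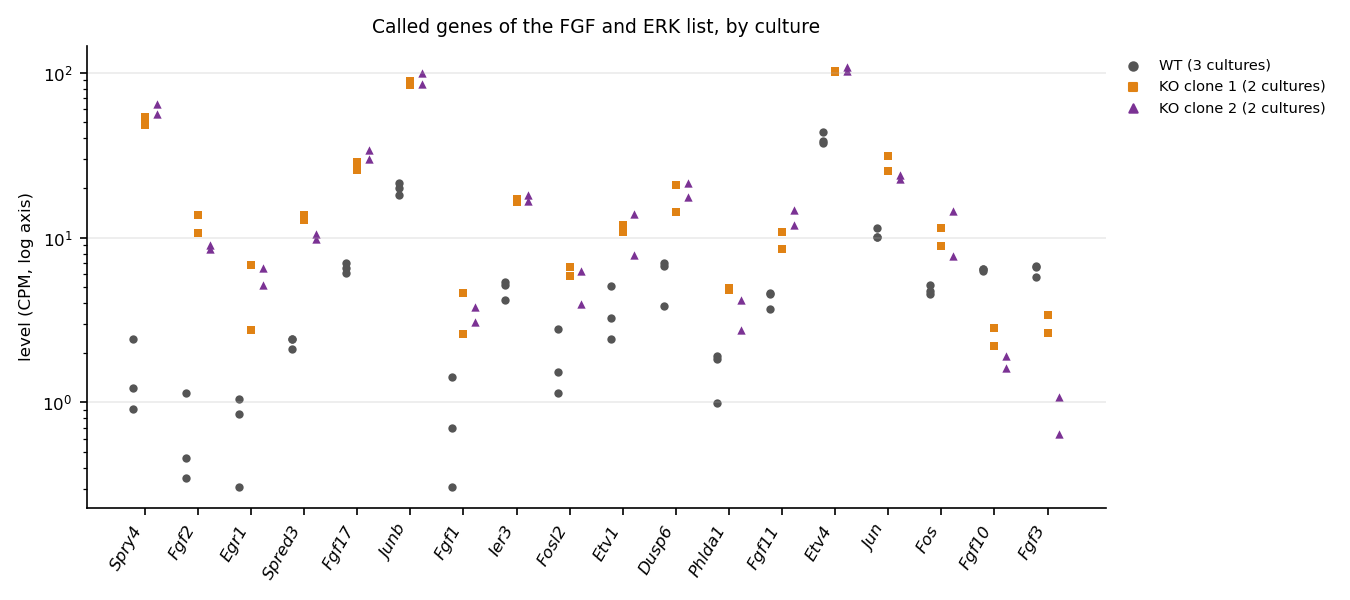
Level in CPM (y axis, log scale) of each called gene of the FGF and ERK list in the 7 total RNA cultures, ordered by log2 fold change. Grey circles are 3 WT cultures, orange squares and purple triangles are the 2 cultures of KO clones 1 and 2. Spry4 at the left rose by 5.08 on the log2 scale, and Fgf10 and Fgf3 at the right are the only called members that fell.

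Naive pluripotency genes moved in both directions. Of 40 members, 3 were called up and 3 down, 7.5% each against 6.09% and 3.26% of all tested genes. With the adjusted p alone 20 were higher and 15 lower, with a median of 0.10. Their summed level was 9586, 9570.3 and 9759 CPM in wild type, 11313 and 11460.3 CPM in clone 1 and 11134 and 11145 CPM in clone 2, so the KO cultures were all above wild type. The called rises were Spry4, Dusp6 and Manba, a lysosomal mannosidase, and the called falls were Otx2, Lefty2 and Tcl1. Otx2, a transcription factor of the epiblast and of the exit from naive pluripotency, was at 13.6, 13.7 and 10.5 CPM in the wild-type cultures, 2.48 and 3.41 CPM in clone 1 and 2.04 and 1.61 CPM in clone 2 (log2 fold change -2.45 ± 0.22 (SE), adjusted p = 9.9e-13). Lefty2, a secreted inhibitor of Nodal, was at 81.9, 77.2 and 87.6 CPM in the wild-type cultures, 25.003 and 27.7 CPM in clone 1 and 24.0 and 22.2 CPM in clone 2 (log2 fold change -1.80 ± 0.08 (SE), adjusted p = 2.8e-22). Of 20 tested primed epiblast genes, 4 were called up and 1 down, 20% and 5%, with a median of 0.33. The rises were Lin28b, which blocks let-7 maturation (from 22.03 ± 2.60 to 65.5 ± 2.28 CPM, log2 fold change 1.49 ± 0.09 (SE), adjusted p = 1.7e-18), the SOX factors Sox11 and Sox4 with log2 fold changes of 1.37 and 1.18, and Etv4. The fall was Otx2, so members of this list did not move together.

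Of 15 tested trophoblast genes, 7 were called up and 1 down, 46.7% and 6.67% against 6.09% and 3.26% of all tested genes. The median was 0.71 outside chromosome 6. The summed level of the trophoblast list was 289, 296 and 286 CPM in wild type, 628 and 653 CPM in clone 1 and 637 and 678 CPM in clone 2. Part of the rise in that sum is Peg10, an imprinted retrotransposon-derived gene of the placenta on chromosome 6, which was at 34.6, 38.8 and 37.6 CPM in the wild-type cultures, 163 and 179 CPM in clone 1 and 203 and 229 CPM in clone 2 (log2 fold change 2.31 ± 0.15 (SE), adjusted p = 8.7e-06). Outside chromosome 6, the simple-epithelium keratin Krt19 went from 2.36 ± 1.14 to 9.57 ± 1.71 CPM (log2 fold change 1.90 ± 0.25 (SE), adjusted p = 2.6e-08) and Plet1, a surface protein of trophoblast progenitors, from 15.4 ± 1.19 to 41.4 ± 3.24 CPM (log2 fold change 1.36 ± 0.10 (SE), adjusted p = 8.1e-15). Ascl2, a factor of the ectoplacental cone, fell (log2 fold change -1.35 ± 0.29 (SE), adjusted p = 1.1e-04). The factors Cdx2, Elf5, Hand1 and Gata3 stayed under the filter and Tpbpa had no read, while Eomes and Tfap2c passed the filter. The 11 untested members summed to between 8.11 and 11.4 CPM in wild type and between 7.56 and 9.60 CPM in the KO. The part that trophoblast cells in the cultures play in these values was not tested.

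Of 20 tested neural genes, 0 were called up and 4 down, against 6.09% and 3.26% of all tested genes. By adjusted p alone 4 were higher, 7 lower and 9 passed in neither direction, with a median of -0.25. The oligodendrocyte lineage factor Olig1 was at 20.96, 23.8 and 19.06 CPM in the wild-type cultures, 7.29 and 6.83 CPM in clone 1 and 4.75 and 5.31 CPM in clone 2 (log2 fold change -1.89 ± 0.16 (SE), adjusted p = 9.5e-14), and its neighbour Olig2 had a log2 fold change of -1.12 ± 0.13 (SE). The neurofilament genes Nefl and Nefm fell as well. Nefl was at 68.3, 62.9 and 63.9 CPM in the wild-type cultures, 33.4 and 33.7 CPM in clone 1 and 17.1 and 14.1 CPM in clone 2 (log2 fold change -1.47 ± 0.31 (SE), adjusted p = 0.00993), with clone 2 below clone 1 (log2 difference -1.10 ± 0.13 (SE), adjusted p = 2.1e-09). Of 9 tested mesoderm and endoderm genes, 2 rose, namely the VEGF receptor Kdr (from 2.32 ± 0.567 to 9.32 ± 0.967 CPM, log2 fold change 1.95 ± 0.24 (SE), adjusted p = 2.3e-09) and the muscle filament gene Des (log2 fold change 1.05), and 2 fell, among them the homeobox gene Gsc (log2 fold change -1.69), and the median was -0.29. Of these 9 genes, 1 reached 3 CPM in KO cultures only and was called up. Another 2 reached it in wild-type cultures only and were called down. In primitive endoderm, the only called gene of 14 was Podxl on chromosome 6, and the median was 0.00. Of 5 tested Hox genes, only Hoxc12 was called, with a log2 fold change of -1.45, and the median was -0.52.

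Of 30 tested germline genes, 14 were called up and 2 down, 46.7% and 6.67%, with a median of 0.98 outside chromosome 6. Of the 30, 7 reached 3 CPM in KO cultures only and all of these were called up. The other 23 had 7 called up and 2 down, with a median of 0.26. Slc25a31, a testis ADP/ATP carrier, was at 0.175, 0.153 and 0.427 CPM in the wild-type cultures, 8.94 and 7.92 CPM in clone 1 and 8.41 and 7.88 CPM in clone 2 (log2 fold change 4.83 ± 0.39 (SE), adjusted p = 3.3e-14). Tex13b, an X-linked testis gene, went from 0.419 ± 0.110 to 7.24 ± 1.66 CPM (log2 fold change 4.005 ± 0.38 (SE), adjusted p = 5.0e-12), and the X-linked homeobox genes Rhox6 and Rhox9 had log2 fold changes of 3.37 ± 0.23 and 3.06 ± 0.39 (SE). Genes of the piRNA pathway and of meiosis followed at smaller sizes: Ddx4, the germ cell helicase VASA, rose by 1.90, Piwil2 by 1.97, Mov10l1 by 2.32 and the synaptonemal protein gene Sycp1 by 1.72. Dmrt1, a sex determination factor that is also made in early germ cells, fell, with a log2 fold change of -1.67. The list's summed level was between 916 and 947 CPM in wild type and between 1024 and 1042 CPM in the KO. Rhox genes are a cluster of related copies, so their single levels are uncertain.

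Of 11 tested genes of the 2-cell-like state, a rare ESC state with transcripts of the early embryo, 8 were called up and 2 down, with a median of 1.54. Of the 11, 5 reached 3 CPM in KO cultures only, all called up. The other 6 had 3 called up and 2 down, with a median of 0.61. The summed level was 43.5, 49.8 and 53.3 CPM in wild type, 111 and 108 CPM in clone 1 and 60.1 and 59.2 CPM in clone 2, so clone 1 stood well above clone 2, and clone 2 stood above the wild-type cultures by less than clone 1 did. Usp17le went from 0.815 ± 0.274 to 4.72 ± 1.29 CPM (log2 fold change 2.42 ± 0.37 (SE), adjusted p = 3.5e-07), and Usp17lb was at 0.699, 1.68 and 1.28 CPM in the wild-type cultures, 8.61 and 8.88 CPM in clone 1 and 4.34 and 3.86 CPM in clone 2 with clone 2 lower (log2 difference -1.09 ± 0.28 (SE), adjusted p = 0.0316). Usp17lc had a log2 fold change of 1.997 and the Zscan4 genes Zscan4c, Zscan4d and Zscan4f of 1.77, 1.68 and 1.42. Copies within the Usp17l and Zscan4 families are nearly identical, and with only uniquely mapped reads counted the split between copies is uncertain. Pramel6 and Pramel7, which this list also holds, fell.

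In the Nodal and TGF-beta list, 3 of 29 were called up and 3 down, 10.3% each against 6.09% and 3.26% of all tested genes. By adjusted p 11 were higher and 11 lower, and the median was 0.06. The ligand gene Inhbb rose, as described above. The receptor gene Tgfbr2 was at 2.80, 1.83 and 2.42 CPM in the wild-type cultures, 16.4 and 14.2 CPM in clone 1 and 13.3 and 14.95 CPM in clone 2 (log2 fold change 2.57 ± 0.21 (SE), adjusted p = 4.3e-14). Lefty2, a target of Nodal, and Ltbp1, which stores latent TGF-beta in the matrix, fell, the last with a log2 fold change of -1.18. Of 14 tested BMP and ID genes, Id1 and Id3 rose while Id2 and Smad6 fell. Id1 was at 1.22, 2.75 and 1.99 CPM in the wild-type cultures, 9.60 and 9.15 CPM in clone 1 and 15.1 and 8.68 CPM in clone 2 (log2 fold change 2.33 ± 0.26 (SE), adjusted p = 1.3e-09). Id2 was at 13.6, 17.1 and 19.3 CPM in the wild-type cultures, 4.47 and 4.92 CPM in clone 1 and 4.21 and 3.86 CPM in clone 2 (log2 fold change -2.01 ± 0.17 (SE), adjusted p = 3.4e-13). Members of a family of helix-loop-helix inhibitors thus moved in opposite directions. Id3 had a log2 fold change of 1.54 ± 0.15 and Smad6, an inhibitory SMAD, of -1.01 ± 0.16 (SE), and the median of the list was 0.22.

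In the Notch list, 1 of 24 was called up and 2 down, 4.17% and 8.33% against 6.09% and 3.26% of all tested genes. The median was 0.03. The receptor Notch3 was at 69.9, 67.5 and 65.3 CPM in the wild-type cultures, 19.4 and 23.4 CPM in clone 1 and 15.1 and 17.5 CPM in clone 2 (log2 fold change -1.91 ± 0.10 (SE), adjusted p = 2.0e-19). The ligand Jag1 went from 23.7 ± 0.691 to 10.5 ± 1.11 CPM (log2 fold change -1.24 ± 0.13 (SE), adjusted p = 5.1e-11). While both were lower in the KO, the repressor Hes1 went from 46.6 ± 1.01 to 105 ± 4.54 CPM (log2 fold change 1.09 ± 0.07 (SE), adjusted p = 3.5e-18). In the Wnt list, 4 of 43 were called up and 2 down, 9.30% and 4.65%, with a median of -0.07. Of the 43, 3 reached 3 CPM in KO cultures only, 2 of them called up. The other 40 had 2 called up and 2 down, with a median of -0.10 outside chromosome 6. Porcn, the acyltransferase that Wnt ligands need for secretion, was at 6.29, 6.26 and 5.83 CPM in the wild-type cultures, 33.6 and 26.9 CPM in clone 1 and 35.4 and 40.5 CPM in clone 2 (log2 fold change 2.40 ± 0.15 (SE), adjusted p = 2.3e-17). Sp5, a direct Wnt target, went from 1.11 ± 0.653 to 3.87 ± 0.720 CPM (log2 fold change 1.67 ± 0.36 (SE), adjusted p = 1.1e-04). The ligand Wnt11 had a log2 fold change of 1.37, which became 0.97 without wild-type culture 1. The receptor Fzd4 and the TNF receptor family member Tnfrsf19 fell, with log2 fold changes of -1.07 and -1.33. In the Hippo and YAP list, 7 of 40 were called up, 6 of them outside chromosome 6, and 1 down, 17.5% and 2.5%. The median was 0.09. The rises included Amot, an X-linked scaffold that holds YAP in the cytoplasm (from 0.866 ± 0.713 to 6.03 ± 0.303 CPM, log2 fold change 2.68 ± 0.34 (SE), adjusted p = 9.3e-09), the surface nucleotidase gene Nt5e (log2 fold change 2.15 ± 0.18) and Fjx1, which encodes a Golgi protein (log2 fold change 1.76 ± 0.15), and the fall was the YAP target Ccn2 (log2 fold change -1.42). In the LIF, JAK and STAT list, 2 of 23 were called, Junb and the fibrinogen-like gene Fgl2, both up, with a median of 0.30.

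Structural and adhesion genes changed in both directions. Of 19 tested intermediate filament genes, 7 were called up and 3 down, with a median of 0.48. Of the 19, 2 reached 3 CPM in KO cultures only and were called up. The other 17 had 5 called up and 3 down, with a median of 0.23. All rises but Des were keratins. Krt17, a keratin of basal and stressed epithelium, was at 13.5, 12.2 and 9.39 CPM in the wild-type cultures, 57.6 and 56.3 CPM in clone 1 and 66.6 and 71.4 CPM in clone 2 (log2 fold change 2.37 ± 0.11 (SE), adjusted p = 2.0e-19). Krt13 went from 0.401 ± 0.203 to 5.32 ± 1.56 CPM (log2 fold change 3.54 ± 0.42 (SE), adjusted p = 1.9e-09). Krt7, Krt8, Krt19 and Krt42 also rose. All falls were neuronal or muscle filaments, namely Nefl, Nefm and Synm, the last with a log2 fold change of -1.16. Of 34 tested junction and epithelial genes, 5 were called up and 1 down, with a median of 0.07. Cdcp1, a surface substrate of SRC kinases, rose by 1.57 and the plakophilin Pkp3 by 1.15, whereas the desmosome linker Dsp went from 66.7 ± 2.04 to 33.4 ± 4.13 CPM (log2 fold change -1.06 ± 0.08 (SE), adjusted p = 1.1e-14).

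Mesenchymal markers had 5 of 20 called up, 25% against 6.09% of all tested genes, and none called down, with a median of 0.42. Anxa3, a phospholipid-binding annexin, was at 1.05, 1.53 and 0.569 CPM in the wild-type cultures, 11.4 and 11.3 CPM in clone 1 and 10.04 and 6.75 CPM in clone 2 (log2 fold change 3.16 ± 0.30 (SE), adjusted p = 4.5e-12). S100a6, a calcium-binding protein, went from 4.27 ± 0.545 to 20.4 ± 1.47 CPM (log2 fold change 2.17 ± 0.17 (SE), adjusted p = 8.5e-15) and Lgals1, the galectin-1 gene, from 20.8 ± 1.04 to 70.5 ± 3.15 CPM (log2 fold change 1.69 ± 0.08 (SE), adjusted p = 1.1e-20). Mmp14, a membrane-bound collagenase, rose by 1.56. The summed level of the list was 1680.4, 1607 and 1577 CPM in wild type, 1525 and 1548 CPM in clone 1 and 1475 and 1535 CPM in clone 2, so the KO cultures were all lower in the sum. The fibroblast markers Thbs1, Fbn1, Thy1, Timp3 and Col1a1 were called up as well, with log2 fold changes of 2.99, 2.22, 1.56, 1.25 and 1.06. They are 5 of 11 tested, 45.5%, with none called down. The summed fibroblast list was again lower in the KO, at 1331 to 1452 CPM against 1569 to 1697 CPM, and its 19 untested members summed to between 4.55 and 6.64 CPM in wild type and between 5.47 and 6.42 CPM in the KO. The median of the tested members was 0.23. Of the 11, 2 reached 3 CPM in KO cultures only, called up, and the other 9 had a median of 0.13.

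The extracellular matrix list was split, with 11 of 58 called up and 9 down, with a median of 0.02. Of the 58, 6 reached 3 CPM in KO cultures only, all called up, and 3 in wild-type cultures only, all called down. The other 49 had 5 called up and 6 down, with a median of -0.04 outside chromosome 6. Fbn1, which encodes the microfibril protein fibrillin-1, was at 5.94, 6.87 and 9.25 CPM in the wild-type cultures, 39.2 and 39.5 CPM in clone 1 and 33.7 and 33.6 CPM in clone 2 (log2 fold change 2.22 ± 0.13 (SE), adjusted p = 3.8e-18). Lamb3, the beta chain of laminin-332, went from 2.08 ± 0.164 to 10.9 ± 1.38 CPM (log2 fold change 2.31 ± 0.23 (SE), adjusted p = 1.8e-11). Thbs1, thrombospondin-1, went from 0.404 ± 0.219 to 3.57 ± 1.12 CPM (log2 fold change 2.99 ± 0.47 (SE), adjusted p = 5.7e-07). Col13a1, a transmembrane collagen, fell most (from 7.19 ± 1.11 to 1.03 ± 0.179 CPM, log2 fold change -2.84 ± 0.29 (SE), adjusted p = 3.2e-11). Of 27 tested integrin genes and partners, Itga9 and Zyx rose, Fermt3 and Itgb5 fell, with log2 fold changes of 1.53, 1.75, -1.66 and -1.09, and the median was 0.11. Zyx lies on chromosome 6. In the cadherin list, 3 of 22 rose, among them the giant cadherin Fat2 (from 8.74 ± 0.318 to 41.0 ± 4.17 CPM, log2 fold change 2.16 ± 0.12 (SE), adjusted p = 3.1e-19) and Pcdhga10 (log2 fold change 1.53), and 2 fell, Pcdh19 and Cdh4 (log2 fold change -1.66). The median of that list was 0.28. Of the 22, 3 reached 3 CPM in KO cultures only, 2 of them called up, and 1 in wild-type cultures only, called down. The other 18 had 1 called up and 1 down, with a median of 0.13. Axon guidance genes gave 4 called up and 4 down of 41, with a median of 0.05. The secreted ligand Slit2 was at 11.4, 10.99 and 8.54 CPM in the wild-type cultures, 3.31 and 2.19 CPM in clone 1 and 1.49 and 0.965 CPM in clone 2 (log2 fold change -2.44 ± 0.25 (SE), adjusted p = 6.3e-11). The semaphorin gene Sema3c had a log2 fold change of -1.78, the endothelial receptor Robo4 of 2.35 and Epha1 on chromosome 6 of 1.53.

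Of 50 tested actin and SRF target genes, 5 were called up and 2 down, with a median of 0.01. Tmsb4x, the X-linked gene of the actin-sequestering thymosin beta-4, was at 81.8, 78.3 and 80.5 CPM in the wild-type cultures, 268 and 249 CPM in clone 1 and 298 and 271 CPM in clone 2 (log2 fold change 1.69 ± 0.05 (SE), adjusted p = 3.3e-26). Gsn, the actin-severing gelsolin, went from 5.41 ± 1.41 to 20.8 ± 1.85 CPM (log2 fold change 1.89 ± 0.16 (SE), adjusted p = 4.2e-13), and Cald1 and Flnc, both on chromosome 6, had log2 fold changes of 1.61 and 1.57. Of 16 tubulin genes, Tuba3b, Tubg2 and Tubb2a rose, by 2.36, 1.38 and 1.002, and the median was 0.11. Tuba3b and Tubg2 reached 3 CPM in KO cultures only. Among the other 14 only Tubb2a was called, and their median was -0.04 outside chromosome 6. Tuba3b lies on chromosome 6, and Tubb2a was at the fold threshold.

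**Figure D3:**
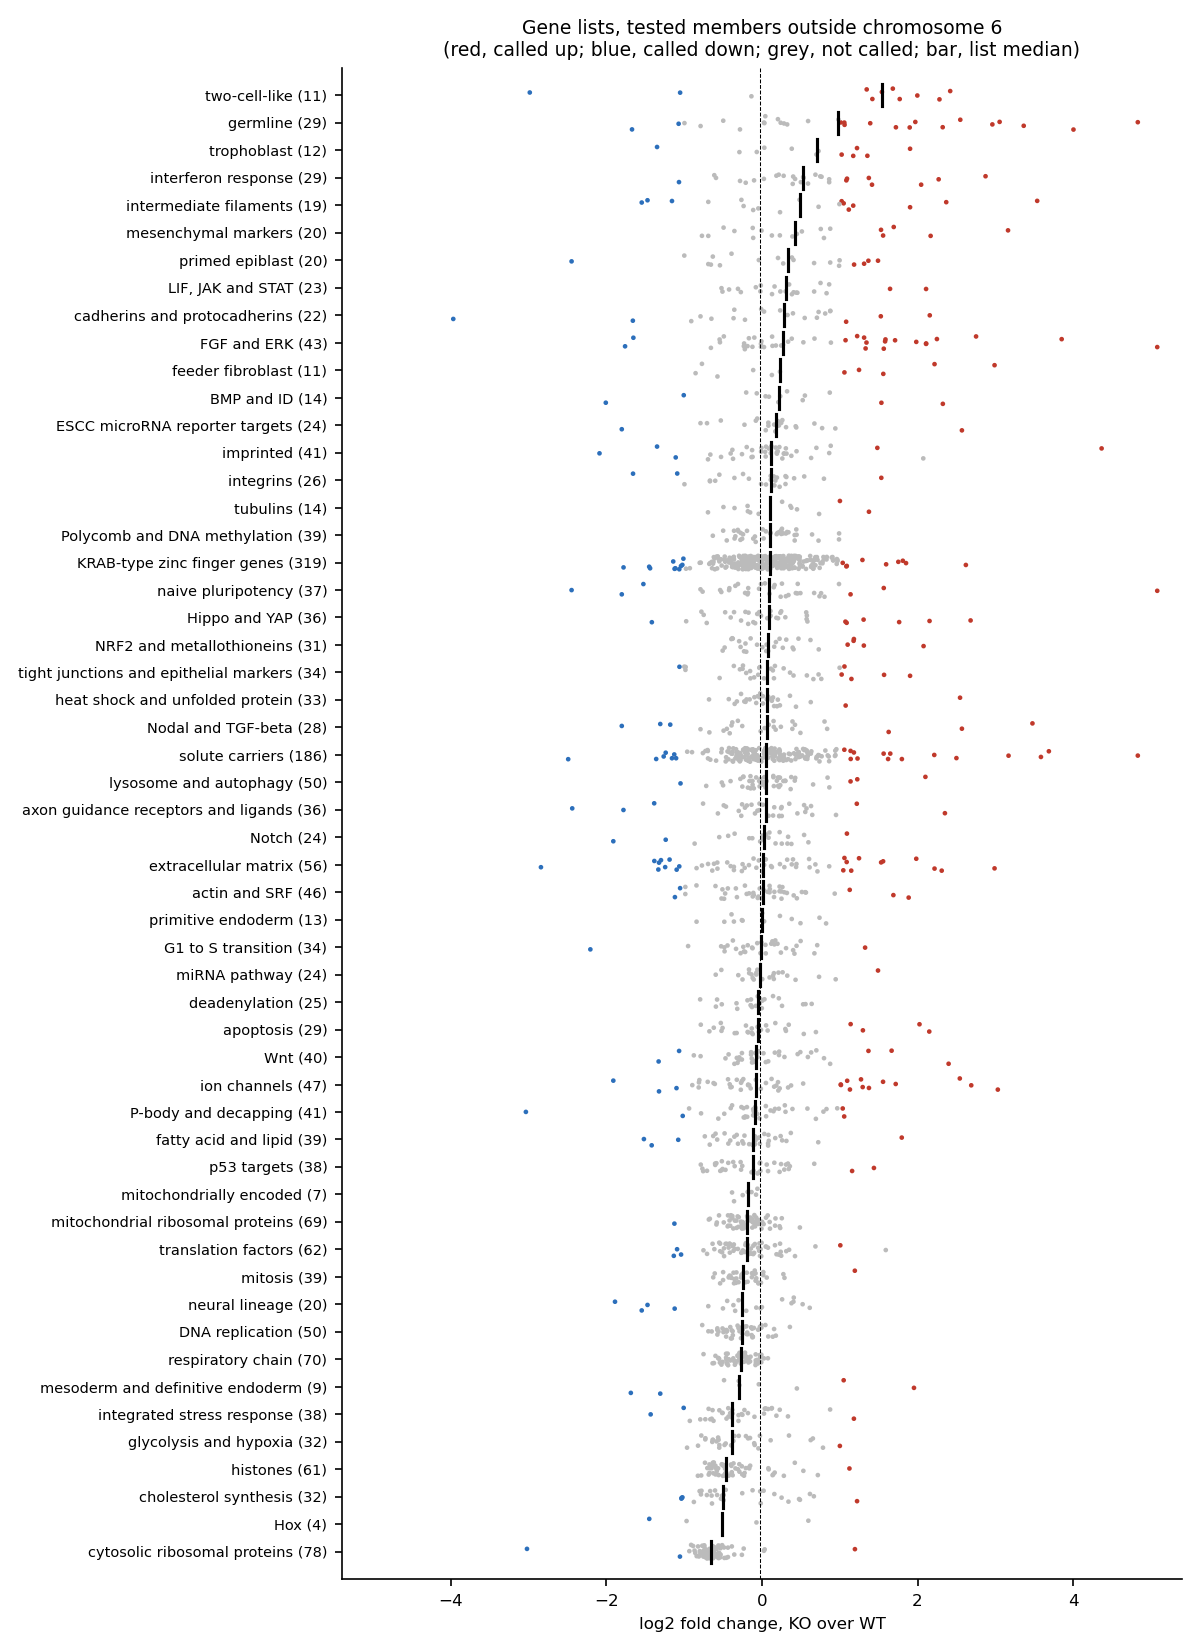
Log2 fold change of KO over WT (x axis) for the tested members of each gene list outside chromosome 6 (y axis, list name with the number of members), ordered by list median. Red and blue points are members called up and down, grey points were not called, black bars are list medians and the dashed line is the median of all tested genes outside chromosome 6, -0.02. The 2-cell-like list has the highest median, 1.54, and the cytosolic ribosomal protein list the lowest, -0.66. Without members that reached 3 CPM in KO cultures only, the 2-cell-like median is 0.61, below the trophoblast median of 0.70 taken the same way.

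Genes for the cytosolic ribosome were lower as a group by less than 2-fold. By the fold threshold 1 was called up and 2 down. With the adjusted p alone, 72 of 79 tested members were lower, 1 was higher and 6 passed in neither direction, against 29.9% of all genes in each direction. The median log2 fold change was -0.66 outside chromosome 6, and only Rpl39l, Rpl10 and Rpl10l passed the fold threshold. The summed level was 20084, 19887 and 19378 CPM in wild type, 13958 and 13469.6 CPM in clone 1 and 13585 and 13442 CPM in clone 2, so every KO culture was below every wild-type culture. Rpl10l, a retrocopy of the X-linked Rpl10, was the member that rose (from 51.1 ± 2.15 to 123 ± 5.64 CPM, log2 fold change 1.195 ± 0.06 (SE), adjusted p = 5.6e-20), while Rpl10 went from 16.6 ± 2.08 to 8.29 ± 1.06 CPM (log2 fold change -1.05 ± 0.15 (SE), adjusted p = 1.2e-07). Reads of ribosomal protein genes and of their many processed copies are hard to place uniquely, so levels of single members, Rpl10, Rpl10l and Rpl39l included, are uncertain.

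Short transcripts were lower in general, and most ribosomal protein transcripts are short. Over tested protein-coding genes outside chromosome 6, the median log2 fold change was -0.20 in the shortest of 10 equal bins of transcript length, up to 1291 bases, and 0.05 in the longest bin. Without ribosomal protein genes the shortest bin was at -0.18. Relative to genes in the same bin of length and of GC content, the ribosomal protein median was -0.47, and 75 of its 78 members outside chromosome 6 lay below their bin. Histone genes, at a median of -0.47 with 50 of 64 lower by adjusted p, were at -0.26 relative to such genes, and respiratory chain genes, at -0.27 with 52 of 74 lower, were at -0.12. Of 75 mitochondrial ribosomal protein genes, 35 were lower and 7 higher, 3 of these 7 outside chromosome 6. The median of that list was -0.19, and -0.10 relative to genes of the same bins. The 7 tested mitochondrially encoded genes had a median of -0.18, and of 0.02 relative to such genes, a change of sign. The part of length in these results was not tested beyond this comparison. Of these lists, no respiratory chain or mitochondrially encoded gene was called by edgeR, DESeq2 or limma, although 58 and 6 had an unadjusted p under 0.05. The only genes called up were Rpl10l and the linker histone H1f0 (from 60.8 ± 2.85 to 139 ± 5.84 CPM, log2 fold change 1.12 ± 0.06 (SE), adjusted p = 6.9e-20), and Mrps24 fell, with a log2 fold change of -1.13.

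**Figure D4:**
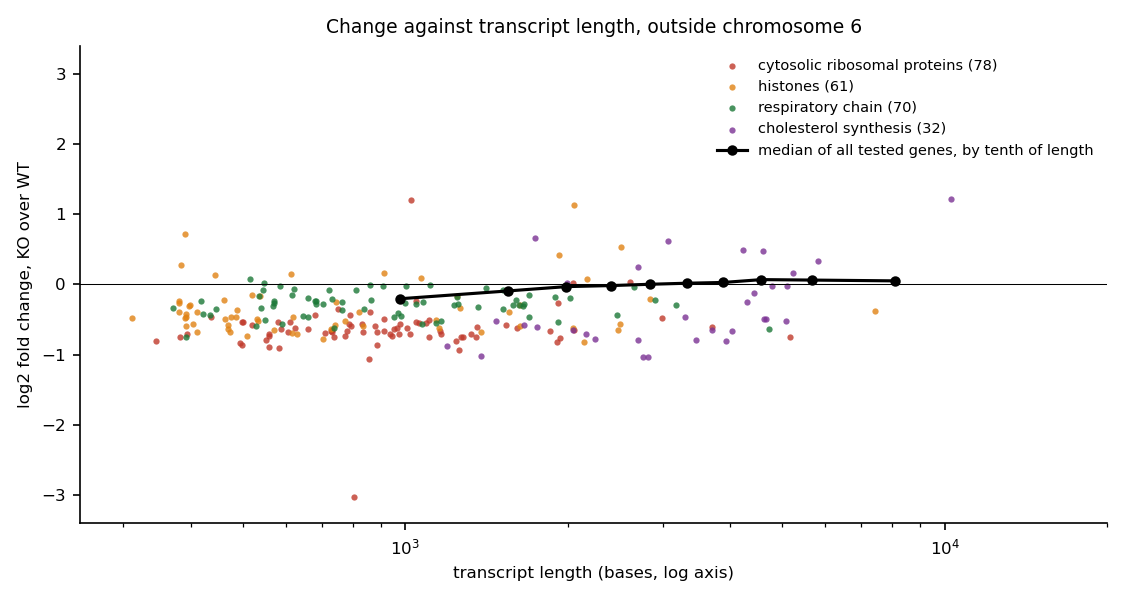
Log2 fold change of KO over WT (y axis) against transcript length in bases (x axis, log scale) for genes outside chromosome 6. Black points joined by a line are medians of all tested protein-coding genes in 10 bins of length, coloured points are members of 4 lists. Cytosolic ribosomal protein genes lie below the line at -0.20 for the shortest bin, and cholesterol synthesis genes, which are longer, lie lower too with a median of -0.50.

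Other growth genes also stood lower by small amounts. DNA replication genes had no call in either direction by edgeR, DESeq2 or limma, but 42 had an unadjusted p under 0.05, and 36 of 52 were lower and 5 higher by adjusted p, with a median of -0.26. Mitosis genes were similar, with 25 of 40 lower, 4 higher and a median of -0.25, and the only call was the phosphatase gene Cdc25b, which rose (from 22.5 ± 3.34 to 54.4 ± 2.22 CPM, log2 fold change 1.19 ± 0.09 (SE), adjusted p = 1.3e-14). Of 37 genes of the G1 to S transition, 2 were called up and 1 down, with a median of -0.01. Ccnd2, which encodes cyclin D2 and lies on chromosome 6, was at 0.175, 0.458 and 0.854 CPM in the wild-type cultures, 11.3 and 8.19 CPM in clone 1 and 8.82 and 10.6 CPM in clone 2 (log2 fold change 4.10 ± 0.34 (SE), adjusted p = 8.3e-14). Its partner kinase gene Cdk6 went from 54.9 ± 4.27 to 145 ± 5.53 CPM (log2 fold change 1.33 ± 0.06 (SE), adjusted p = 8.5e-22). Mycl, a MYC family factor, was at 35.6, 37.9 and 37.0 CPM in the wild-type cultures, 7.95 and 8.47 CPM in clone 1 and 8.96 and 8.04 CPM in clone 2 (log2 fold change -2.21 ± 0.12 (SE), adjusted p = 8.7e-20). Cyclin D2 and CDK6 mRNA were thus higher and Mycl mRNA lower in every KO culture. Translation factors had 1 called up and 3 down, with 35 of 63 lower and 11 higher by adjusted p and a median of -0.19. The RNA helicase Eif4a2 was at 949, 929 and 928 CPM in the wild-type cultures, 463 and 448 CPM in clone 1 and 441 and 441 CPM in clone 2 (log2 fold change -1.13 ± 0.03 (SE), adjusted p = 3.2e-29). Eif2b5 and Eif2s2, subunits of eIF2B and eIF2, had log2 fold changes of -1.09 ± 0.04 and -1.04 ± 0.05 (SE), and Eif4g3 rose by 1.01.

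In the P-body and decapping list, 2 of 45 members were called up and 2 down, Ddx6 included, 4.44% each against 6.09% and 3.26% of all tested genes. By adjusted p alone 16 were higher and 17 lower, 29.9% of all tested genes passing in each direction, with a median of -0.09. The other calls were the cytoplasmic polyadenylation factor genes Cpeb4 and Cpeb1 and Zfp36, whose protein directs AU-rich mRNAs to decay, with log2 fold changes of 1.06, -1.02 and 1.04. Of 27 deadenylation genes none was called by edgeR, DESeq2 or limma, 16 had an unadjusted p under 0.05, 8 were higher and 8 lower by adjusted p, and the median was -0.05. Of 24 miRNA pathway genes only Lin28b was called, 11 were higher and 5 lower by adjusted p, and the median was -0.03.

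The main microRNAs of ESCs, the ESC cell cycle family, share a seed, the bases 2 to 8 that pair with target 3′ UTRs. The mature sequences below are from RefSeq (GRCm38.p6) with bases 2 to 8 in capitals, shown because target sites in the changed mRNAs were counted by this seed. RefSeq starts miR-302c 1 base later than its relatives, so that its capitals are shifted, and miR-302a is named only.

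mmu-miR-291a-3p: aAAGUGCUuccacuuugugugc
mmu-miR-294-3p: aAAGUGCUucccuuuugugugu
mmu-miR-295-3p: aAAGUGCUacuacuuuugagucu
mmu-miR-302b-3p: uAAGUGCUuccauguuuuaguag
mmu-miR-302c-3p: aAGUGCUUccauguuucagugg
mmu-miR-302d-3p: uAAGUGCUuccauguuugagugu

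The seed pairs with AGCACTT, and this site followed by A was counted as an 8mer. Outside chromosome 6, 372 of 10770 tested genes with an annotated 3′ UTR held an 8mer, 3.45%. The share was 2.51% of the 598 genes called up and 3.28% of the 305 called down. Of the 372 genes, 142 were higher and 71 lower by adjusted p, 38.2% and 19.09%, with a median log2 fold change of 0.08. Of 8979 genes without AGCACTT, 27.2% were higher and 31.5% lower, with a median of -0.02. Genes with an 8mer have long 3′ UTRs, a median of 2756 bases against 871, and long transcripts were higher in general, so length moved with the site and its part in the difference was not tested. Of the called genes with an 8mer, 15 rose and 10 fell. Of those named by rule, Cdk6 has 2 sites and rose, Ano1 and Zfp618 have 1 each and rose, and Lefty2, Olig2 and Eif2s2 have 1 each and fell. Their sites are shown within 30 bases of 3′ UTR from Gencode, the 8mer in capitals:

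Ano1: ggggatgagaccctcAGCACTTAccattgt
Lefty2: ccatcacccagtttaAGCACTTAcatgggt
Olig2: ggcgtgggtatcagaAGCACTTAgggtcct
Cdk6 site 1: tcatcccgcacattcAGCACTTAtggacta
Cdk6 site 2: tagcataatagaaagAGCACTTAgcagatg
Eif2s2: tagtacagacttcttAGCACTTAggaagct
Zfp618: gtgattatacatggaAGCACTTAttctcag

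Of 26 tested genes used as reporters of these microRNAs, 2 were called up and 1 down, 14 were higher and 5 lower by adjusted p, and the median outside chromosome 6 was 0.19. The calls were Tgfbr2, the nuclear receptor gene Nr2c2 on chromosome 6 (from 73.6 ± 5.38 to 155 ± 2.54 CPM, log2 fold change 1.005) and Lefty2.

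In the cholesterol synthesis list, 1 of 32 was called up and 3 down, 3.1% and 9.4% against 6.09% and 3.26% of all tested genes. By adjusted p 21 were lower and 6 higher, and the median was -0.50. Sqle, the squalene epoxidase, was at 166, 156 and 163 CPM in the wild-type cultures, 86.8 and 91.9 CPM in clone 1 and 73.3 and 79.6 CPM in clone 2 (log2 fold change -1.03 ± 0.06 (SE), adjusted p = 7.2e-18), and Dhcr7 and Fdps, both enzymes of the pathway, had log2 fold changes of -1.04 ± 0.11 and -1.02 ± 0.20 (SE). All 3 falls were near the fold threshold, and without clone 2 culture 1 Sqle was at -0.98 and Dhcr7 at -0.92, and without wild-type culture 1 Fdps was at -0.88. The called rise was Abca1, which exports cholesterol from the cell (from 15.9 ± 1.63 to 38.9 ± 0.867 CPM, log2 fold change 1.22 ± 0.10 (SE), adjusted p = 1.1e-13). The list's summed level was 3202, 3227 and 3267 CPM in wild type, 2453 and 2485 CPM in clone 1 and 2411 and 2476 CPM in clone 2, with no overlap between genotypes. In fatty acid and lipid metabolism, Scd1, the stearoyl-CoA desaturase, was at 373, 372 and 348 CPM in the wild-type cultures, 180.0 and 187 CPM in clone 1 and 179 and 181 CPM in clone 2 (log2 fold change -1.08 ± 0.04 (SE), adjusted p = 1.3e-24). The lipoprotein lipase gene Lpl and the fatty acid binding protein gene Fabp3 had log2 fold changes of -1.42 ± 0.08 and -1.52 ± 0.12, and Dgat2, which makes triglycerides, rose by 1.80 ± 0.16 (SE). Over the 40 genes, 1 was called up and 3 down, 17 were lower and 4 higher by adjusted p, and the median was -0.12.

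Glycolysis and hypoxia genes had a median of -0.38 outside chromosome 6, with 22 of 38 lower and 8 higher by adjusted p. Outside chromosome 6, 21 were lower and 5 higher. Only Eno3, the muscle enolase, and Ldhb on chromosome 6 were called. Genes of the integrated stress response, many of which make or import amino acids, had 1 called up and 2 down, with 26 of 41 lower and 6 higher by adjusted p and a median of -0.38. Cbs, the cystathionine synthase, went from 49.6 ± 2.503 to 19.3 ± 1.11 CPM (log2 fold change -1.43 ± 0.09 (SE), adjusted p = 1.9e-17). Chac1, whose product degrades glutathione, had a log2 fold change of -1.01. The cystine carrier Slc7a11 went from 1.70 ± 0.508 to 4.15 ± 1.25 CPM (log2 fold change 1.18 ± 0.33 (SE), adjusted p = 0.00199), and its lowest KO culture, at 2.32 CPM, was next to the highest wild-type culture, at 2.29 CPM. Slc7a11 also belongs to the NRF2 list, with a median of 0.08. Of its 31 genes 5 were called up, 16.1% against 6.09% of all tested genes, and none down. Srxn1, the sulfiredoxin gene, was at 24.5, 21.98 and 24.0 CPM in the wild-type cultures, 53.8 and 58.3 CPM in clone 1 and 67.3 and 64.9 CPM in clone 2 (log2 fold change 1.31 ± 0.09 (SE), adjusted p = 3.9e-16), and Gstt1 and Gstt2, both glutathione transferases, rose by 2.08 and 1.18. The heat shock genes Hspa1a and Hspa1b rose by 2.55 and 1.08, the only calls of 35 heat shock and unfolded protein genes, whose median was 0.06. These 2 copies are nearly identical, so their split is uncertain.

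Of 29 tested interferon response genes, 7 were called up and 1 down, 24.1% and 3.45% against 6.09% and 3.26% of all tested genes. By adjusted p 20 were higher and 4 lower, with a median of 0.53. Of the 29, 2 reached 3 CPM in KO cultures only, called up, and the other 27 had a median of 0.50. Oasl1, an interferon-induced inhibitor of IRF7 translation, was at 3.49, 3.05 and 1.85 CPM in the wild-type cultures, 24.2 and 21.6 CPM in clone 1 and 21.8 and 17.7 CPM in clone 2 (log2 fold change 2.87 ± 0.19 (SE), adjusted p = 1.4e-16). Ifit2 and Zbp1, a sensor of Z-form nucleic acid, had log2 fold changes of 2.27 ± 0.40 and 2.05 ± 0.36 (SE), and Tmem173, which encodes STING, went from 8.10 ± 0.424 to 22.7 ± 2.73 CPM (log2 fold change 1.41 ± 0.14 (SE), adjusted p = 2.4e-11). Bst2, which tethers virus particles, fell, with a log2 fold change of -1.07. In the apoptosis list the called genes belong to the death receptor pathway, 5 of 33 up, 15.2%, and none down, with a median of -0.06. Casp8, its initiator caspase, was at 1.92, 1.22 and 2.56 CPM in the wild-type cultures, 9.11 and 6.69 CPM in clone 1 and 9.91 and 10.4 CPM in clone 2 (log2 fold change 2.15 ± 0.26 (SE), adjusted p = 2.7e-09). Cflar, an inhibitor of caspase-8, went from 3.39 ± 0.639 to 14.5 ± 1.19 CPM (log2 fold change 2.03 ± 0.19 (SE), adjusted p = 4.2e-12). The kinase genes Ripk1 and Ripk3 rose by 1.14 and 1.30. Tnfrsf1a, the TNF receptor gene, rose by 1.97 and lies on chromosome 6. Casp8 and Cflar both lie on chromosome 1. Of 41 p53 target genes, Perp, Cd80 and Gadd45a, the last on chromosome 6, rose by 1.44, 1.16 and 1.92, none was called down, and 18 were lower against 10 higher by adjusted p, with a median of -0.12. Without wild-type culture 3, Cd80 was at 0.97.

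Of 53 lysosome and autophagy genes, 4 were called up and 1 down, 7.55% and 1.89%, with a median of 0.05. Manba was at 61.1, 74.3 and 67.0 CPM in the wild-type cultures, 153 and 163 CPM in clone 1 and 157 and 153 CPM in clone 2 (log2 fold change 1.14 ± 0.06 (SE), adjusted p = 5.5e-20). The autophagy receptor gene Optn rose by 1.23, the cathepsin gene Ctsh by 2.10, and Gabarapl1 on chromosome 6 by 1.70. Solute carriers had 17 of 196 called up and 9 down, 8.67% and 4.59% against 6.09% and 3.26% of all tested genes, and a median of 0.05. Of them, 8 reached 3 CPM in KO cultures only, all called up, and 1 in wild-type cultures only, called down. The other 187 had 9 called up and 8 down, with a median of 0.04 outside chromosome 6. Slc40a1, the iron exporter ferroportin, was among the largest rises (from 0.408 ± 0.141 to 4.05 ± 0.718 CPM, log2 fold change 3.17 ± 0.43 (SE), adjusted p = 3.1e-08). Ion channels had 12 of 47 called up, 25.5%, and 3 down, 15 were higher and 14 lower by adjusted p, 5 reached 3 CPM in KO cultures only and 2 in wild-type cultures only, and all 7 of these were called. The ion channels had a median of -0.08. Trpa1, a cation channel that senses irritants, was at 4.54, 6.11 and 4.41 CPM in the wild-type cultures, 33.6 and 35.0 CPM in clone 1 and 25.2 and 29.9 CPM in clone 2 (log2 fold change 2.54 ± 0.16 (SE), adjusted p = 9.8e-18). The calcium channel gene Cacna1g and the potassium channel gene Kcng3 had log2 fold changes of 3.03 ± 0.40 and 2.69 ± 0.41, and the calcium channel subunit gene Cacng6 of -1.91 ± 0.23 (SE). Genes named Zfp with a number, plotted as KRAB-type zinc finger genes, were picked by name and not by protein domain. Of these, 16 of 336 were called up and 10 down, 4.76% and 2.98%, both below the shares of all tested genes, with a median of 0.10. Outside chromosome 6, 9 of 319 were called up and 10 down, where the shares of all tested genes were 5.42% and 3.31%. Many of these genes are related copies, so single levels are uncertain. The largest rises were Zfp467 on chromosome 6, Zfp536, Zfp287 and Zfp618, with log2 fold changes of 3.19, 2.62, 1.85 and 1.81. Of 45 Polycomb and DNA methylation genes only Tet3 on chromosome 6 was called (log2 fold change 1.03), and the median was 0.10.

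Chromosome 6 genes were higher as a group. Of 581 tested, 113 were called up and 13 down, 19.4% and 2.24%, and by adjusted p alone 77.6% were higher and 6.54% lower. The median log2 fold change was 0.54, against -0.02 for genes elsewhere, and the medians of the other autosomes lay between -0.08 and 0.03. A call on chromosome 6 therefore includes this shift, and the largest rises were well beyond it. Vax2, a homeobox gene of the ventral eye, was at 1.57, 0.305 and 1.28 CPM in the wild-type cultures, 20.4 and 19.7 CPM in clone 1 and 18.05 and 22.3 CPM in clone 2 (log2 fold change 4.18 ± 0.24 (SE), adjusted p = 1.9e-18), and its antisense transcript Vax2os went from 1.26 ± 0.291 to 10.4 ± 1.92 CPM (log2 fold change 2.97 ± 0.27 (SE), adjusted p = 1.6e-12). Arntl2, a circadian transcription factor, Pdzrn3, a ubiquitin ligase, and the coreceptor Cd4 had log2 fold changes of 2.84 ± 0.28, 2.82 ± 0.21 and 2.63 ± 0.27 (SE). Mest, an imprinted hydrolase gene, was at 52.8, 44.0 and 48.1 CPM in the wild-type cultures, 243 and 239.7 CPM in clone 1 and 426 and 401 CPM in clone 2 (log2 fold change 2.69 ± 0.33 (SE), adjusted p = 0.00103), with clone 2 above clone 1 (log2 difference 0.78 ± 0.05 (SE), adjusted p = 4.3e-20).

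Against the shift, 7 called protein-coding genes of chromosome 6 were lower without overlap and at 10 CPM or more. Atp2b2, a plasma membrane calcium pump, was at 12.2, 9.92 and 8.54 CPM in the wild-type cultures, 0.662 and 1.37 CPM in clone 1 and 0.814 and 0.161 CPM in clone 2 (log2 fold change -3.75 ± 0.30 (SE), adjusted p = 5.1e-14). Ldhb, the B subunit of lactate dehydrogenase, was at 52.6, 56.5 and 60.2 CPM in the wild-type cultures, 20.2 and 20.3 CPM in clone 1 and 23.2 and 20.6 CPM in clone 2 (log2 fold change -1.49 ± 0.09 (SE), adjusted p = 2.2e-18). The transporters Slc4a5 and Slc41a3 had log2 fold changes of -1.59 ± 0.12 and -1.26 ± 0.19, Tmtc1 of -1.17 ± 0.18, the sialomucin Podxl of -1.14 ± 0.12 and the folate enzyme Aldh1l1 of -1.03 ± 0.12 (SE). The X chromosome also had more rises than most, with 51 of 402 genes called up, 12.7%, 7 called down and a median of 0.15. Chromosome 1 had 66 of 702 called up, 9.40%, but a median of 0.03.

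The clones differed from each other in few genes. Of 12099 genes, 2 were higher and 17 lower in clone 2 than in clone 1 by the same rule, 0.0165% and 0.141%, and by adjusted p alone 0.405% were higher and 0.595% lower, 121 genes in all. Calls in either direction were 0.157%. Of the 19, 3 are Y-linked and 5 are on the list of imprinted genes. Ddx3y was at 54.7, 52.0 and 54.6 CPM in the wild-type cultures, 114 and 106 CPM in clone 1 and 0.271 and 0.322 CPM in clone 2 (log2 difference -8.45 ± 0.22 (SE), adjusted p = 8.2e-46). Uty, the Y-linked relative of the histone demethylase gene Kdm6a, was at 17.5, 17.7 and 13.7 CPM in the wild-type cultures, 37.4 and 28.4 CPM in clone 1 and 0.136 and 0.161 CPM in clone 2 (log2 difference -7.62 ± 0.37 (SE), adjusted p = 3.5e-28), and Eif2s3y, a translation factor gene, at 6.29, 6.56 and 8.39 CPM in the wild-type cultures, 41.4 and 49.0 CPM in clone 1 and 0 and 0.161 CPM in clone 2 (log2 difference -8.93 ± 0.37 (SE), adjusted p = 3.7e-32). Clone 2 had almost no reads from these genes, and wild type lay between the clones. The KO group averages both clones, so the comparison of genotypes is not used for Y-linked genes.

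Imprinted genes differed between clones at several loci. Of 47 tested, 5 were called between clones. Between genotypes 4 were called up and 3 down, of which 2 and 3 lay outside chromosome 6. On chromosome 6 lie 6 of the members, and the median elsewhere was 0.11. H19, a maternally expressed non-coding RNA, was at 4.19, 5.19 and 4.84 CPM in the wild-type cultures, 32.6 and 38.1 CPM in clone 1 and 5.70 and 8.20 CPM in clone 2 (log2 difference -2.37 ± 0.18 (SE), adjusted p = 6.2e-18), so clone 2 was near wild type and clone 1 above it. Peg3, a paternally expressed zinc finger gene, was at 127, 118 and 126 CPM in the wild-type cultures, 81.3 and 82.5 CPM in clone 1 and 173 and 180.1 CPM in clone 2 (log2 difference 1.11 ± 0.07 (SE), adjusted p = 2.0e-22), with wild type between the clones and no difference between genotypes that passed the test (log2 fold change -0.01 ± 0.37 (SE), adjusted p = 0.99). Cdkn1c, Phlda2 and Grb10 were lower in clone 2 as well, with log2 differences of -3.30, -1.33 and -1.15. Between genotypes, Smoc1, a matricellular gene, went from 32.3 ± 4.56 to 7.96 ± 2.73 CPM (log2 fold change -2.09 ± 0.18 (SE), adjusted p = 9.9e-09). The other calls between clones include Ddx6, Nefl, Fgf3 and 3 genes of the 2-cell-like list.

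**Figure D5:**
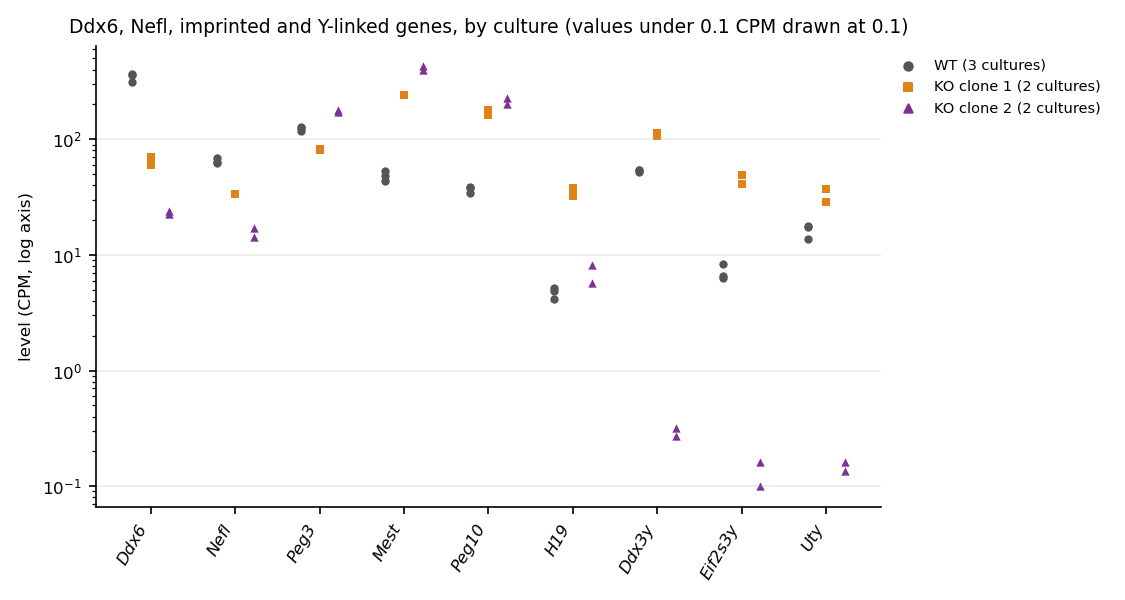
Level in CPM (y axis, log scale) of Ddx6, Nefl, 4 imprinted genes and 3 Y-linked genes in the 7 total RNA cultures. Grey circles are 3 WT cultures, orange squares and purple triangles are the 2 cultures of KO clones 1 and 2. Clone 2 has at most 0.322 CPM of each Y-linked gene where clone 1 has 28.4 CPM or more, and the clones lie on opposite sides of WT for Peg3.

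Non-coding transcripts with the largest changes were named by the same rule. Beside Vax2os, 4921525O09Rik went from 3.32 ± 0.0432 to 16.8 ± 2.65 CPM (log2 fold change 2.26 ± 0.19 (SE), adjusted p = 1.6e-13) and the non-coding gene Gm46332 rose by 1.93. The lincRNA Gm42047 on chromosome 8 was at 108, 99.5 and 113 CPM in the wild-type cultures, 19.2 and 19.12 CPM in clone 1 and 20.4 and 20.7 CPM in clone 2 (log2 fold change -2.50 ± 0.08 (SE), adjusted p = 7.2e-28), with the genotypes far apart. Gm40977 and the transcribed pseudogene Gm13230 had log2 fold changes of -2.90 ± 0.26 and -1.76 ± 0.08 (SE).

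Transcript structure of the called genes was compared with that of all tested genes, without a test. Outside chromosome 6, the median transcript length was 3251 bases for genes called up, 3183 for genes called down and 3067 for all tested protein-coding genes, and the median 3′ UTR was 1090.0, 1065 and 1030.0 bases. GC content was 51.1%, 51.8% and 50.6%. In the shortest bin of transcripts 46 genes were called up and 34 down, and in the longest bin 64 and 37.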

How the data were processed

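Single-end libraries were made from ribosomal-RNA-depleted total RNA of 7 cultures. The counts per gene were deposited by the authors without normalization, from Cutadapt 1.14, STAR 2.5.3a on mm10 keeping reads with a unique position, and strand-specific featureCounts 1.5.3 on a Gencode basic annotation without ribosomal RNA genes. Genes at 3 CPM or more in 3 libraries entered a quasi-likelihood fit in edgeR 4.0.16 (R 4.3.3) with TMM factors and genotype as the only term, and a second fit with the clones as separate groups gave the clone difference. The SE is the log2 fold change divided by the root of F. P-values were adjusted over all tested genes by the method of Benjamini and Hochberg. Library sizes, between 5724179 and 7369651 counts, limit low genes. Alternatives were DESeq2 1.42.0, limma 3.58.1 with voom, other scalings and filters, the replicate block, 14 libraries with the 4-thiouridine-selected RNA, each clone alone, and leaving out each culture. Transcript features came from Gencode M21 and microRNAs from RefSeq. Re-sequenced 4-thiouridine libraries were not analysed here.

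The libraries, the 54 gene lists and the tests were chosen with earlier results of these data known. Named genes were Ddx6, the 12 largest rises and falls among called protein-coding genes outside chromosome 6 with 10 CPM or more and no overlap between genotypes on CPM scaled by the TMM factors (printed CPM are not scaled), and by the same rule 5 rises and all falls on chromosome 6. From each list up to 4 called members with 3 CPM or more were named, with the 4 largest clone differences in each direction and the 3 largest non-coding rises and falls. Some genes that this rule names are not reported here. Other genes in the text were chosen after their values were seen.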

Additional observations from a re-analysis of the deposited data

Results flagged for a closer look

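In 5 of 239 groups of 4 KO cultures examined, 1 culture lay far from the other 3, by a criterion that flags about 1 in 20 groups by chance. Loxl4 was at 35.6 CPM in clone 1 culture 1, Podxl at 18.9 CPM in clone 1 culture 1, Ldhb at 23.2 CPM in clone 2 culture 1, Id1 at 15.1 CPM in clone 2 culture 1 and Nefm at 3.38 CPM in clone 2 culture 2. All of these cultures still lay on the same side of wild type as the other KO cultures.

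The clones differed from each other, by edgeR's test of the difference, in 8 of the named genes. The log2 difference of clone 2 minus clone 1 was -8.93 for Eif2s3y, -8.45 for Ddx3y and -7.62 for Uty, all Y-linked. It was -2.37 for the imprinted H19 and 1.11 for the imprinted Peg3. It was -1.496 for Ddx6, -1.10 for Nefl and -1.09 for Usp17lb, whose near-identical copies make its level uncertain.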

How the results depend on the processing

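Genes named only for a difference between clones were left out of this check in the comparison of genotypes. Among them is Peg3, whose clones lay on opposite sides of wild type. No other gene named by rule changed sign, but list medians did, under 14 of 19 alternatives and up to 8 lists at once. With 3 CPM in all 7 libraries, 6 changed sign, of which 2 had been above 0.1: fibroblast markers went from 0.23 to -0.10 and tubulins from 0.11 to -0.03. Of 3403 values of named genes under an alternative, 107 lost the call, in 28 of 185 genes, and of 1080 medians of gene lists 182 moved by more than the spread. With 3 CPM required in all 7 libraries, 356 genes were called up and 211 down, 66 on chromosome 6 and 7 between clones, and the chromosome 6 median was 0.50. With no filter beyond 1 count, 1217 were called up and 728 down, with a chromosome 6 median of 0.55. With the adjusted p alone the counts were 3613 and 3614. In the model of 14 libraries with the 4-thiouridine-selected RNA, 784 were called up and 668 down, the median of genes outside chromosome 6 was -0.11, and the chromosome 6 median was 0.45. The latter was 0.57 with TMM factors made without chromosome 6, 0.61 with library size alone and 0.53 with the replicate block. DESeq2 called 10 genes between clones. Leaving out each culture in turn gave 726 to 762 genes up and 389 to 413 down, a chromosome 6 median between 0.53 and 0.54, and 11 to 19 genes called between clones, 12 and 11 of them without clone 1 culture 1 and 2. Relative to genes of the same length and GC bin, an alternative chosen after seeing the data, the medians of 3 lists changed sign (Nodal and TGF-beta, primitive endoderm, mitochondrially encoded). The cause was not tested.

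With the replicate block, 762 genes were called up and 413 down. Deviations of same-numbered cultures correlated between -0.004 and 0.06, and those of differently numbered cultures between -0.06 and 0.04. With 2 cultures per clone the deviations within a clone mirror each other. These values therefore cannot decide whether the numbers pair the cultures.

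Named genes whose log2 fold change fell below 1 in size without a culture were, at their lowest, Cpeb1 (-0.84 without clone 1 culture 1), Smad6 (-0.87) and Cd80 (0.97), Des (0.96) without wild-type culture 3, Zfp36 (0.87), Tubb2a (0.91), Eno3 (0.95), Nr2c2 (0.96) and Eif4g3 (0.97) without wild-type culture 2, Fdps (-0.88), Chac1 (-0.90), Rpl10 (-0.97) and Wnt11 (0.97) without wild-type culture 1, Dhcr7 (-0.92), Sqle (-0.98) and Hspa1b (0.98) without clone 2 culture 1, and Tet3 (0.94), Aldh1l1 (-0.96) and Eif2s2 (-0.999) without clone 2 culture 2. Depth limits genes near 3 CPM, which rest on about 20 reads a library.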
